A study of Mus musculus with 12 samples.

Results

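The 3 mouse Gadd45 genes and the genes around Gadd45a on chromosome 6 were followed through 12 hippocampal RNA-seq libraries. The 7 genes were chosen by symbol from the 37991 genes in the files: the paralogs Gadd45a, Gadd45b and Gadd45g, the non-coding gene E230016M11Rik that overlaps Gadd45a on the opposite strand, and the chromosome 6 neighbours Gng12, Serbp1 and Il12rb2. The choice was made with results of the comparison between genotypes known, so the differences of these genes between the groups are given as a description without p-values. Of these, 6 libraries are labelled Wildtype and 6 Gadd45a-KO, which the labels describe as wild type and Gadd45a-/- siblings of C57BL/6N background, obtained by interbreeding heterozygotes. The animals of both groups were 6 to 7 months old and had been through the passive avoidance (PA) test, in which a mouse learns to avoid a compartment where it received a foot shock. Hippocampi were taken 1 h after the test, and no library came from an untrained mouse. The allele is constitutive, so that it is carried by every cell type of the hippocampus. The Gadd45a-/- allele holds a neomycin resistance cassette under the PGK promoter in place of exons 1 to 3 of Gadd45a, and exon 4, the last, remains.

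GADD45 proteins are small acidic proteins without known enzymatic activity of their own, which act by binding partners. Through the kinase MAP3K4 they feed into p38 and JNK signalling, through CDK1, PCNA and p21 they touch the cell cycle, and as adaptors of the repair enzymes TDG and XPG they take part in active DNA demethylation. Gadd45a is a classical target of p53, and Gadd45b and Gadd45g are known in the hippocampus as genes induced by neuronal activity. Among the neighbours, Gng12 encodes a gamma subunit of heterotrimeric G proteins, Serbp1 an RNA-binding protein found on ribosomes and Il12rb2 a chain of the interleukin-12 receptor of lymphocytes. E230016M11Rik is annotated as a long intergenic non-coding RNA (lincRNA).

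In the NCBIM37 (mm9) genome Gadd45a (ENSMUSG00000036390) occupies chromosome 6 from 66985090 to 66987451 on the minus strand, and E230016M11Rik (ENSMUSG00000087231) occupies 66986593 to 67030648 on the plus strand. Both genes overlap with their 5′ parts, head to head. The first exon of E230016M11Rik, 66986593 to 66986929, begins 79 bases inside intron 3 of Gadd45a and runs over the whole of the 238-base Gadd45a exon 3, which spans 66986672 to 66986909. The stretch around the start of E230016M11Rik is shown first because it carries both transcription units, in the part of the gene next to and inside an exon that the targeted allele lacks. It is printed for the plus strand of chr6:66986493-66986792, and capitals mark the bases that belong to exon 3 of Gadd45a on the opposite strand. The non-coding gene starts 100 bases into the window.
E230016M11Rik start: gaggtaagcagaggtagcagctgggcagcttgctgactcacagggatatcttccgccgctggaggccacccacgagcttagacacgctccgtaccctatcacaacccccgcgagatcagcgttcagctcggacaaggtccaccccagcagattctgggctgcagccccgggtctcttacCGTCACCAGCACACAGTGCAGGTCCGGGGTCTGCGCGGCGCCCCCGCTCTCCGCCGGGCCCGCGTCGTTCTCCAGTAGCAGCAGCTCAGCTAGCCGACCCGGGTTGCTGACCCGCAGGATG
Exons 1 to 3 hold 546 bases, or 44.6%, of the 1223-base transcript Gadd45a-001, and exon 4, at 66985090 to 66985766, holds 677 bases, or 55.4%. The annotated coding part of exon 4 is 111 bases or 37 codons long. The study's methods give fewer amino acids for the remaining exon 4 than the annotation does, and state that they are not expressed. The annotated coding part is shown because only this part of the protein-coding sequence is present in both genotypes. It is printed for the minus strand of chr6:66985653-66985766 with the stop codon in capitals.
Gadd45a exon 4: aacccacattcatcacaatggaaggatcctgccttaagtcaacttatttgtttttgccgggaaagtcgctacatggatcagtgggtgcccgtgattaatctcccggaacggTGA
The files hold 1 count for a whole gene. A count therefore does not say which exons its reads came from, and it does not check the deleted part of Gadd45a. Of the exon bases of E230016M11Rik, 337 of 3353 (10.1%) lie within the Gadd45a gene. Which bases of intron 3 the cassette replaced is not given in the sources used here.

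Gadd45a, the targeted gene, had more reads in every library labelled Gadd45a-KO than in any labelled Wildtype. Replicates 1 to 6 labelled Wildtype had 102, 154, 153, 124, 115 and 128 reads, or 2.24, 3.43, 2.81, 2.24, 2.19 and 2.56 CPM (reads per 1000000 reads of the normalized library). Replicates 1 to 6 labelled Gadd45a-KO had 1179, 958, 1095, 996, 946 and 1176 reads, or 23.1, 21, 21.1, 20.5, 20.5 and 22.3 CPM. The mean level was 2.58 ± 0.481 CPM (SD, n = 6) in Wildtype and 21.4 ± 1.07 CPM (SD, n = 6) in Gadd45a-KO, a ratio of 8.32, and the log2 fold change fitted by edgeR was 3.06 (SE 0.09, 95% interval 2.86 to 3.26). The count is for the gene as a whole, including exon 4, which the targeted allele keeps. A higher count therefore does not test the genotype in the label, and each library is named here by its label. Which exons the added reads came from was not tested. E230016M11Rik, whose first exon spans the exchanged exon 3, had the fewer reads in the libraries labelled Gadd45a-KO. The spread between animals was 18.7% of the mean in Wildtype, where counting error alone gives 8.79%, and 4.99% in Gadd45a-KO, where counting error gives 3.07%. Over the full 1764 bases of annotated exons the level was 1.46 ± 0.273 CPM per kb in Wildtype and 12.1 ± 0.606 CPM per kb in Gadd45a-KO (SD, n = 6). If all reads of the libraries labelled Gadd45a-KO came from exon 4, their level over that exon would be 31.7 ± 1.58 CPM per kb (SD, n = 6).

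E230016M11Rik, the overlapping non-coding gene, had the opposite pattern. It had 154, 147, 189, 192, 180 and 194 reads in Wildtype replicates 1 to 6, or 3.39, 3.27, 3.47, 3.46, 3.42 and 3.87 CPM. In the libraries labelled Gadd45a-KO it had 6, 9, 14, 9, 6 and 4 reads, or 0.118, 0.198, 0.27, 0.185, 0.13 and 0.076 CPM. The highest Gadd45a-KO library lay far below the lowest Wildtype library, and reads were left in all 6. The means were 3.48 ± 0.206 and 0.163 ± 0.069 CPM (SD, n = 6 each), 21.4-fold lower in Gadd45a-KO, with a log2 fold change of -4.40 (SE 0.17, 95% interval -4.77 to -4.03). The reads left in Gadd45a-KO varied by 42.4% of their mean, close to the 35.4% that counting error gives for so few reads. In Wildtype the 2 overlapping genes drew similar numbers of reads, with 0.639 to 1.05 reads on Gadd45a for each read on E230016M11Rik, whereas in Gadd45a-KO this ratio ran from 78.2 to 294. The authors counted reads by strand, so the genes are separable where they overlap, as far as the strand of each read was kept in the library.

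**Figure D1:**
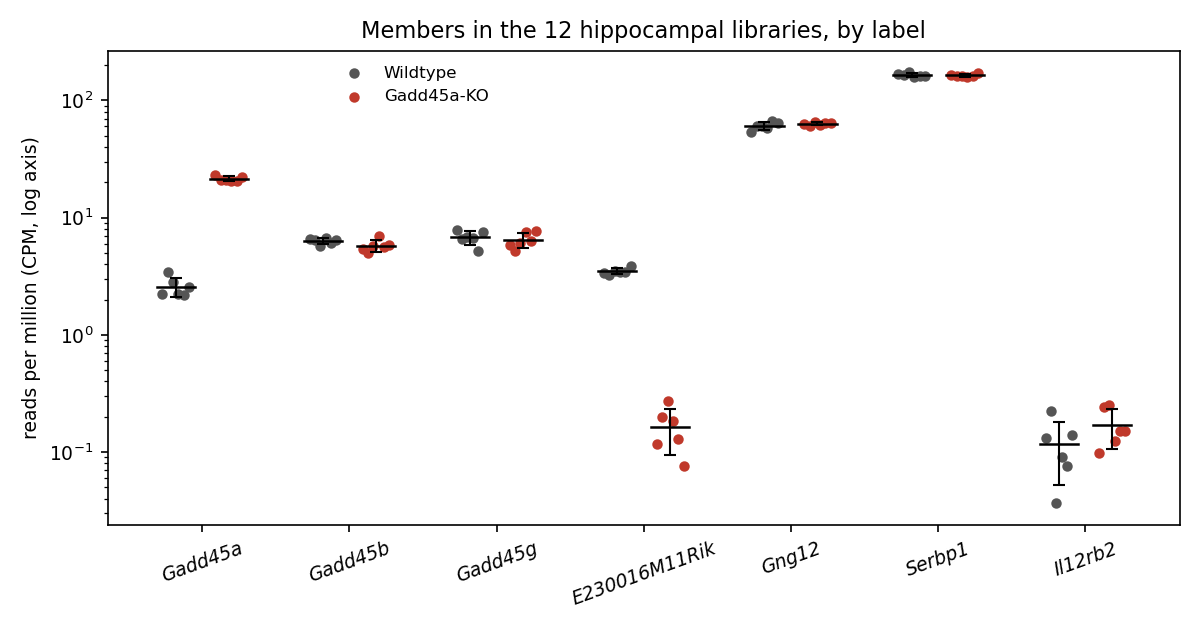
CPM (log axis) of the 7 genes in each library, with Wildtype in grey and Gadd45a-KO in red; the horizontal bar is the mean and the whiskers are 1 SD (n = 6). Gadd45a sits at 2.19 to 3.43 CPM in Wildtype and 20.5 to 23.1 in Gadd45a-KO, E230016M11Rik at 3.27 to 3.87 and 0.076 to 0.27, and the groups overlap for the other 5 genes.

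The 2 genes with separated groups were Gadd45a and E230016M11Rik. Of the 7 genes, 6 passed edgeR's filter on low counts, and 2 of these 6 were past 1% FDR, 1 higher and 1 lower. Over all 16399 genes tested, 2.65% were past it in either direction, 0.0244% (4 genes) higher and 2.62% (430 genes) lower in Gadd45a-KO, and the groups did not overlap in CPM for 3.31%. Because the same contrast was known when the genes were chosen, nothing is read from the comparison of these counts. No threshold on a measured value defined the 7 genes.

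Gadd45b (ENSMUSG00000015312, chromosome 10, 80392836 to 80394949, plus strand) and Gadd45g (ENSMUSG00000021453, chromosome 13, 51942047 to 51943837, plus strand) overlapped between the groups. Gadd45b had 6.51, 6.45, 5.73, 6.74, 6.1 and 6.49 CPM in Wildtype replicates 1 to 6 and 5.45, 5.01, 5.76, 6.97, 5.59 and 5.85 CPM in Gadd45a-KO. Of the 6 libraries labelled Gadd45a-KO, 5 lay below the Wildtype mean and replicate 4 was the highest of all 12, so the groups overlapped. The means were 6.34 ± 0.362 and 5.77 ± 0.658 CPM (SD, n = 6 each), with a log2 fold change of -0.13 (SE 0.08) and a 95% interval of -0.30 to 0.03. Gadd45g had 7.87, 6.56, 6.83, 6.72, 5.15 and 7.61 CPM in Wildtype and 5.88, 5.16, 6.11, 7.57, 6.28 and 7.69 CPM in Gadd45a-KO. Both groups covered nearly the same range. The means were 6.79 ± 0.958 and 6.45 ± 0.991 CPM (SD, n = 6 each), with a log2 fold change of -0.07 (SE 0.11) and a 95% interval of -0.31 to 0.17. In terms of fold, the 95% intervals of this fit ran from 0.815 to 1.02 for Gadd45b and from 0.804 to 1.12 for Gadd45g. Without Gadd45a-KO replicate 4, the log2 fold change of Gadd45b was -0.19 (95% interval -0.33 to -0.05). With any other single library left out, the interval of Gadd45b included 0. Gadd45g spread by 14.1% of its mean in Wildtype and 15.4% in Gadd45a-KO, against 5.41% and 5.6% from counting alone.

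As a family, the 3 genes together had 15.7 ± 1.23 CPM in Wildtype and 33.6 ± 1.76 CPM in Gadd45a-KO (SD, n = 6 each), while Gadd45b and Gadd45g alone summed to 13.1 ± 1.14 and 12.2 ± 1.57 CPM. Gadd45a took 13.5% to 20.8% of the family's reads in Wildtype, the least of the 3, and 58.5% to 67.4% in Gadd45a-KO, the most. Both the sum of the 3 genes and this share count all reads on Gadd45a. The targeted allele lacks the exons before exon 4, so in Gadd45a-KO these values are not levels of intact Gadd45 transcripts. Compared per length of annotated exon, the Wildtype order was Serbp1 (24.7 CPM per kb), Gng12 (12.9), Gadd45g (5.79), Gadd45b (5.01), Gadd45a (1.46), E230016M11Rik (1.04) and Il12rb2 (0.0306). Each gene was above the next in 6 of 6 Wildtype libraries, except Gadd45g over Gadd45b in 5 of 6. Log2 differences within libraries were tested by a two-sided exact sign-flip permutation test, adjusted over the 12 neighbours in both groups. Gadd45g over Gadd45b had p = 0.0938 (adjusted p = 0.102, same exact permutation test), which does not show the 2 levels to be equal. The other 5 neighbours had p = 0.0312, the smallest that 6 libraries allow, and adjusted p = 0.0375 in the same exact permutation test. In Gadd45a-KO the order of levels was Serbp1 (24.5 CPM per kb), Gng12 (13.5), Gadd45a (12.1), Gadd45g (5.5), Gadd45b (4.56), E230016M11Rik (0.0485) and Il12rb2 (0.0447). There the last 2 changed places in 3 of 6 libraries (exact permutation p = 0.75, adjusted p = 0.75), and the other neighbours kept their order in 6 of 6. In both groups the neighbours were set by the means of these same libraries. The p-values therefore describe the order and are no independent test of it. The place of Gadd45a in this order turned with the length used: per base of the longest transcript it was at 17.5 CPM per kb, above Gng12 at 14.9, and over exon 4 alone, at 31.7, above Serbp1. The lincRNA, 1.04 CPM per kb in Wildtype, was thus at the level of the lymphocyte receptor gene Il12rb2 in Gadd45a-KO.

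The 250 bases before the start of the coding transcript of each paralog are shown to set the 3 promoters side by side, since 1 of the 3 genes differed between the labels and the other two overlapped. Windows were read from the strand of the gene in NCBIM37, and capitals mark every match, on either strand, to the TATA box TATAAA, the CCAAT box, the E-box CACGTG, the octamer ATTTGCAT, the AP-1 site TGACTCA or the cyclic AMP response element TGACGTCA. The windows are chr6:66987401-66987650 for Gadd45a, chr10:80392586-80392835 for Gadd45b and chr13:51941797-51942046 for Gadd45g.
Gadd45a: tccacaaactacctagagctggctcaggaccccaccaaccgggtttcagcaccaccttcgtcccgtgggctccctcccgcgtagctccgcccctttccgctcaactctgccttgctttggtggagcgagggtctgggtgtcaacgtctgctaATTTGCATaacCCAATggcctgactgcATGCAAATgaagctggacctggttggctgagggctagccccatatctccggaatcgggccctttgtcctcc
Gadd45b: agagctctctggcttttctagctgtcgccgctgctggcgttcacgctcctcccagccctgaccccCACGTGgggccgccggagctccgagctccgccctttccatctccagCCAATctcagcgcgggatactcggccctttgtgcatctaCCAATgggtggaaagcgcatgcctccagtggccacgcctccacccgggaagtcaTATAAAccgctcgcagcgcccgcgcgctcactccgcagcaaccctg
Gadd45g: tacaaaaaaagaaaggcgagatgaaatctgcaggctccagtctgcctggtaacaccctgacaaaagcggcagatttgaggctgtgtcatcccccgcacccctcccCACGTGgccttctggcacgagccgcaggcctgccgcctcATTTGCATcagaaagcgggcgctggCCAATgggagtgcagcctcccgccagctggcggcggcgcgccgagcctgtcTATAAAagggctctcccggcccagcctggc
A CCAAT box stood in all 3 windows, 87 bases before the start in Gadd45a, 139 and 100 in Gadd45b and 81 in Gadd45g, and also in 34.9% of the 14895 protein-coding genes tested. The octamer ATTTGCAT occurred in 1.22% of those windows. It stood in Gadd45a at 98 bases before the start and, on the other strand, at 71, and in Gadd45g at 106. A TATAAA match was present in Gadd45b at 46 and in Gadd45g at 30 bases before the start, but not in the Gadd45a window, and in 6.84% of all windows. CACGTG was matched in Gadd45b at 185 and Gadd45g at 145 bases before the start and in 7.91% of all windows. The AP-1 site was held by 3% of all windows and the cyclic AMP response element by 2.4%, and neither matched in the 3 windows. No matches overlapped each other. The Gadd45a window lies upstream of exon 1 of the coding transcript, which starts at 66987400. The annotated gene reaches to 66987451, so part of this window lies inside it. The Gadd45b and Gadd45g windows end just before their annotated genes, which start at 80392836 and 51942047. The Gadd45a distances, and the absence of a TATAAA match, refer to the coding start only. Whether the targeted allele keeps all of the Gadd45a window is not given in the sources used here.

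The protein-coding neighbours on both sides of Gadd45a overlapped between the groups. Gng12 (ENSMUSG00000036402, 66846391 to 66971344, plus strand) ends 13.7 kb from Gadd45a. It had 53.9, 60.7, 60.1, 58.3, 67.1 and 63.8 CPM in Wildtype and 63.2, 60.9, 65.6, 61.7, 64 and 63.8 CPM in Gadd45a-KO. The Gadd45a-KO values lay within the Wildtype range, and all 6 were above the Wildtype mean. The means were 60.6 ± 4.52 and 63.2 ± 1.68 CPM (SD, n = 6 each), with a log2 fold change of 0.06 (SE 0.05, 95% interval -0.04 to 0.16). Without Wildtype replicate 5 it was 0.10 (95% interval 0.01 to 0.19). With any other single library left out, the interval included 0. Serbp1 (ENSMUSG00000036371, 67216973 to 67239296, plus strand) lies 230 kb away. It had 167, 166, 174, 160, 162 and 162 CPM in Wildtype and 166, 163, 163, 160, 161 and 173 CPM in Gadd45a-KO. Its log2 fold change was -0.01 (SE 0.03, 95% interval -0.08 to 0.06), the narrowest interval of the 6 genes tested, from 7405 to 9460 reads per library. Il12rb2 (ENSMUSG00000018341, 67241312 to 67326182, minus strand) begins 2016 bases beyond Serbp1 and did not pass the filter. It had 6, 10, 2, 5, 4 and 7 reads in Wildtype and 5, 11, 13, 6, 7 and 8 in Gadd45a-KO, or 0.116 ± 0.0644 and 0.17 ± 0.0627 CPM (SD, n = 6 each). The groups overlapped, and a difference was not detectable at this depth: without the filter the log2 fold change was 0.58 (SE 0.37) with a 95% interval of -0.20 to 1.35.

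**Figure D2:**
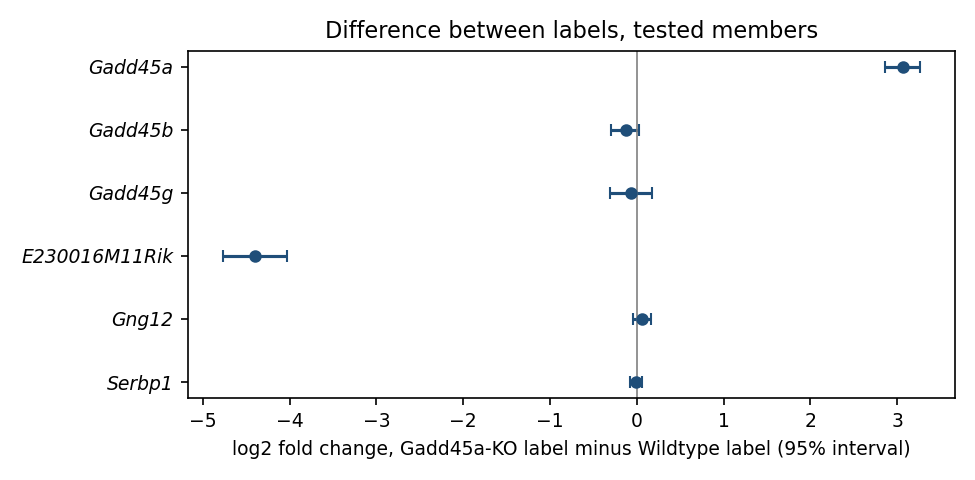
Log2 fold change of the 6 tested genes, Gadd45a-KO minus Wildtype, with the 95% interval from edgeR's quasi-likelihood fit. Gadd45a lies at 3.06 and E230016M11Rik at -4.40, and the intervals of Gadd45b, Gadd45g, Gng12 and Serbp1 include 0.

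Between E230016M11Rik and Serbp1 lies another lincRNA, A430010J10Rik (ENSMUSG00000091724, 67065667 to 67118420, plus strand), which starts 35 kb beyond the end of E230016M11Rik. It was not among the 7 genes and is described because of its values, after they were seen. It had 9, 7, 12, 6, 11 and 10 reads in Wildtype and 0, 1, 0, 0, 0 and 0 in Gadd45a-KO, 55 reads against 1. The groups did not overlap. The ratio of summed reads, scaled to summed library size, was 53.7 between Wildtype and Gadd45a-KO, with a 95% interval from counting error alone of 9.25 to 2159. Too few reads were present for it to pass the filter. A second identifier of the same name, ENSMUSG00000048665, annotated as a pseudogene at 67115197 to 67115610 within it, had 14 reads in Wildtype and 0 in Gadd45a-KO. From the start of E230016M11Rik to the end of A430010J10Rik the plus-strand non-coding genes with lower counts extended over 132 kb. The next gene on that strand with over 20 reads, the pseudogene Gm8566, had 67 reads in Wildtype and 56 in Gadd45a-KO, a ratio of 0.856 on the same scale, Gadd45a-KO over Wildtype (95% interval from counting error 0.589 to 1.24), and Serbp1 begins 98.6 kb beyond A430010J10Rik.

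**Figure D3:**
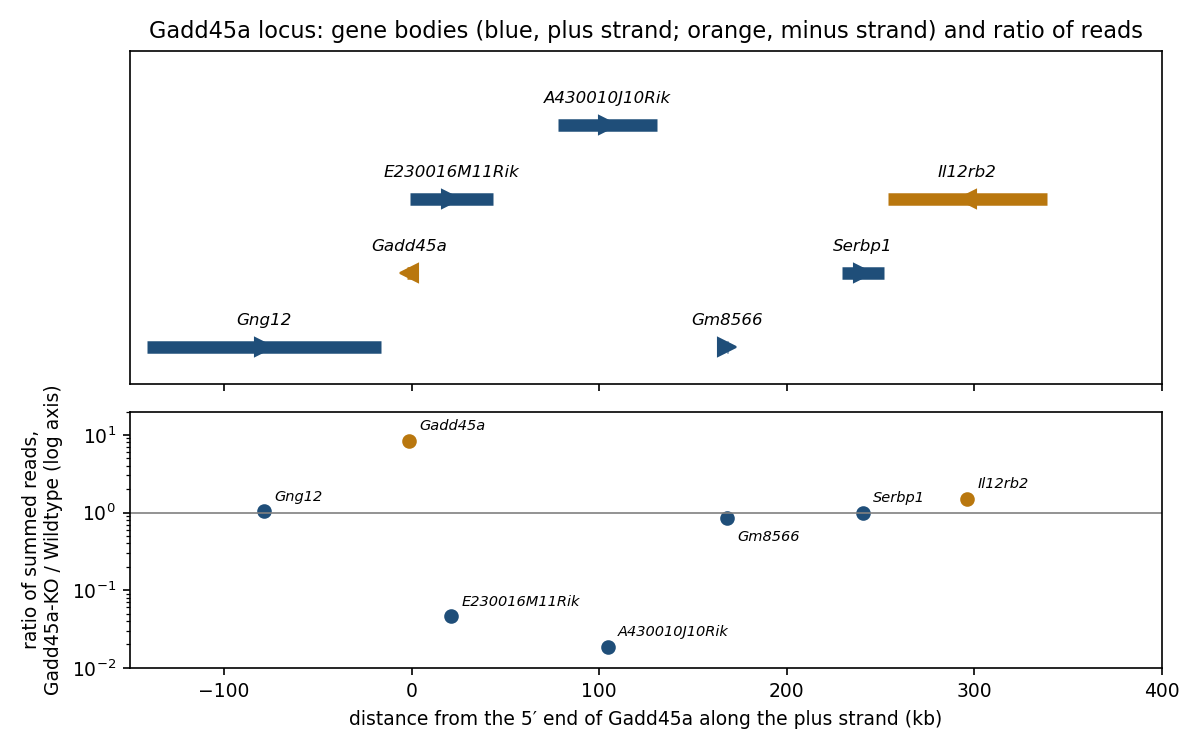
Gene bodies around Gadd45a by distance from its 5′ end in kb (top; blue, plus strand; orange, minus strand; arrowheads give the direction) and the ratio of reads summed over the 6 libraries and scaled to summed library size, Gadd45a-KO over Wildtype, at the middle of each gene (bottom, log axis). Gadd45a lies at 8.38, E230016M11Rik at 0.0466 and A430010J10Rik at 0.0186, while Gng12, Gm8566 and Serbp1 lie between 0.856 and 1.04. Il12rb2, with few reads, lies at 1.51 (95% interval from counting error 0.955 to 2.4).

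Beyond these genes the surroundings of Gadd45a were little transcribed in the hippocampus. Within 1 Mb, 32 other genes are annotated, of which 20 had no reads in any library. Only 2 could be tested, Mad2l1, a spindle checkpoint gene (log2 fold change 0.01, adjusted p = 0.962), and 4930597O21Rik, the nearest tested gene on the Gng12 side (0.07, adjusted p = 0.954, edgeR, quasi-likelihood F-test, Benjamini-Hochberg). Within 5 Mb, 24 of 180 other genes were tested and 0 were past 1% FDR, against 2.65% of all genes. Their log2 fold changes had a median of 0.01 and ran from -0.25 to 0.43, where the median over all genes was 0.00. The nearest tested gene on the Serbp1 side, Rpia, an enzyme of the pentose phosphate pathway 3.73 Mb away, had a log2 fold change of 0.01 (adjusted p = 0.954, same edgeR test). The 0 within 1 Mb and within 5 Mb became 1 each with all genes kept, from A430010J10Rik, and 1 and 2 with DESeq2, where A430010J10Rik was joined by Fam190a 4.65 Mb away (0.26, adjusted p = 0.00287).

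The other genes of the pathway did not pass the test. Of 13 genes whose products bind GADD45 proteins or act beside them, among them Map3k4, Cdk1, Pcna, Cdkn1a and Tdg, 0 rose and 0 fell at 1% FDR (median log2 fold change -0.02, range -0.14 to 0.30). Mapk14, the p38 kinase and the most abundant of them, had 120 ± 1.98 CPM in Wildtype and 117 ± 5.52 CPM in Gadd45a-KO (SD, n = 6 each). Of 8 known transcriptional regulators of Gadd45 genes, among them Trp53, Foxo3 and Atf4, 0 rose and 0 fell (median 0.01, range -0.19 to 0.09). Egr1, the most abundant of these, an activity-induced transcription factor, had 106 ± 11.8 and 93.4 ± 18 CPM (log2 fold change -0.19, SE 0.11). Of 12 genes induced by neuronal activity, Egr1 again included, 0 rose and 0 fell (median -0.11, range -0.52 to 0.10), and their summed level was 274 to 362 CPM in Wildtype and 219 to 355 CPM in Gadd45a-KO. Against 2.65% of all genes, 0 of the genes of these lists were past 1% FDR.

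Within the groups, the paralogs were compared library by library, after the mean of each label had been subtracted from the log2 CPM. This measure does not use the difference between the labels. Gadd45g moved with Junb, an activity-induced subunit of the AP-1 transcription factor, over the 12 libraries (Pearson r = 0.912, exact permutation within labels p = 0.000291, adjusted p = 0.00699; Spearman rho = 0.86, exact permutation p = 0.00129, adjusted p = 0.031). The value was 0.871 within Wildtype and 0.953 within Gadd45a-KO, and 0.868 without the 2 libraries farthest from the median of Gadd45g. The animals with the lowest residuals of both genes were Wildtype replicate 5 (-0.38 for Gadd45g and -0.50 for Junb) and Gadd45a-KO replicate 2 (-0.30 and -0.60), and the highest for Gadd45g were Gadd45a-KO replicates 6 (0.27 and 0.47) and 4 (0.24 and 0.62). Junb ranged from 12.9 to 28.4 CPM in Wildtype and from 9.97 to 23.4 CPM in Gadd45a-KO. Ier2, another immediate early gene, had r = 0.821 with Gadd45g (exact permutation p = 0.00392, adjusted p = 0.047), rho = 0.818 (exact permutation p = 0.0038, adjusted p = 0.0456), 0.897 within Wildtype and 0.743 within Gadd45a-KO, and r = 0.737 without the 2 farthest libraries. These were the only 2 of 24 relations of Gadd45b and Gadd45g with the 12 activity-induced genes that passed an adjusted p of 0.05, both for Gadd45g. Gadd45b passed with 0 of 12, where r ran from -0.475 to 0.716 and the lowest adjusted p was 0.0716. The difference between the paralogs was not tested. The call for Junb was lost without Gadd45a-KO replicate 2, 4 or 6 (adjusted exact permutation p = 0.0586, 0.0686 and 0.0603), and that for Ier2 in 11 of its 16 alternatives, including the replicate block (0.141).

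**Figure D4:**
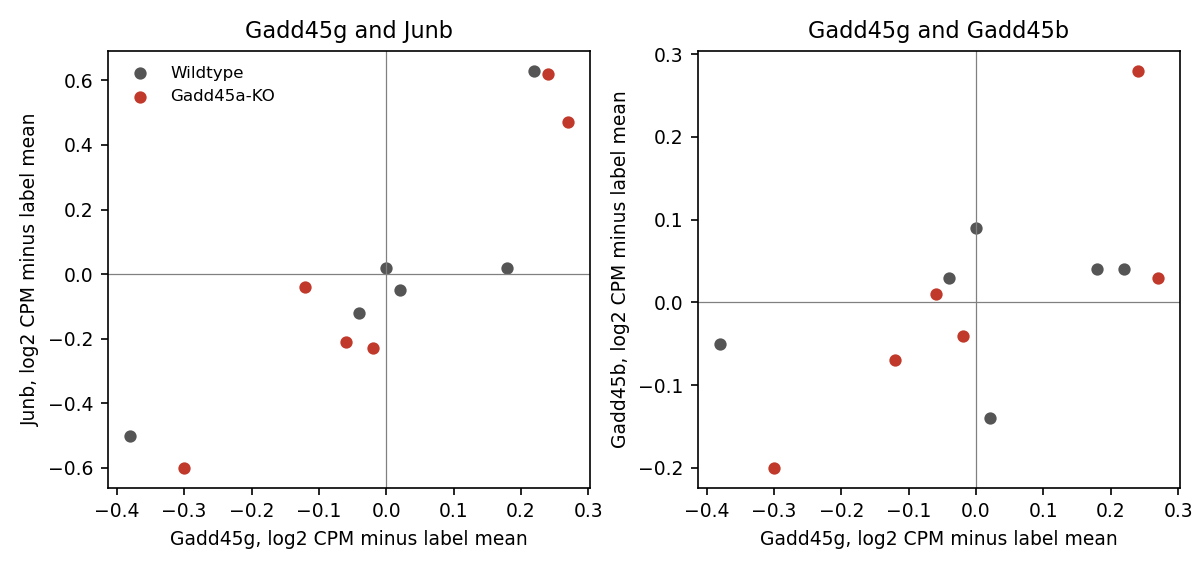
Log2 CPM minus the mean of the label for Gadd45g (x axis) against Junb (left) and Gadd45b (right), one point per library, Wildtype in grey and Gadd45a-KO in red (n = 6 each). Points run from low to high in both genes for Junb (r = 0.912) and more loosely for Gadd45b (r = 0.641).

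Gadd45b and Gadd45g had r = 0.641 with each other (exact permutation within labels p = 0.031, adjusted p = 0.465 over 15 pairs of the 6 tested genes), rho = 0.643 (exact permutation p = 0.0292, adjusted p = 0.221), 0.351 within Wildtype and 0.832 within Gadd45a-KO, and r = 0.417 without the 2 farthest libraries, so that the relation did not pass the correction. None of the 15 pairs had an adjusted p under 0.05, and 1 had an unadjusted exact permutation p under 0.05. Among 13864 genes with a mean of at least 1 CPM, the residuals most like those of Gadd45a were those of Wdr33 (r = 0.915), Refbp2 (0.876) and Ephb2 (0.857), those most like Gadd45b were Npas1 (0.884), 1700003E16Rik (0.884) and Caskin2 (0.883), and those most like Gadd45g were Junb (0.912), Unc93b1 (0.89) and Gm1673 (0.878). These are the highest of a long list over 12 libraries and are given as a description.

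The libraries held 44594261 to 55540601 reads on genes, and the libraries of a label differed from each other by more than counting error. Summed levels of 6 principal neuron markers were 803 to 872 CPM in Wildtype and 726 to 867 CPM in Gadd45a-KO, Neurod6 being the most abundant. These levels were not compared with those of another tissue. Markers of the adjacent thalamus (8 genes, 7 tested, Prkcd the most abundant) stood apart in Gadd45a-KO replicates 2 (306 CPM summed) and 3 (485 CPM), against 86.4 to 132 CPM in the other 10 libraries, and 5 oligodendrocyte markers led by Mbp stood apart in replicate 3 (6896 CPM against 2179 to 3537). Of each of the lists for thalamus, choroid plexus (led by Kl), oligodendrocytes, astrocytes (Slc1a3), microglia (Csf1r), endothelial cells (Flt1) and principal neurons, 0 genes were past 1% FDR, with median log2 fold changes of 1.22, 0.48, 0.45, 0.11, 0.05, 0.10 and -0.13, and 0 markers of any list were at 0 in every library. In whole tissue, fewer cells of a type and less RNA per cell cannot be told apart. With both libraries high in thalamic markers left out, an alternative chosen after seeing the data, Gadd45a (log2 fold change 3.07) and E230016M11Rik (-4.76) remained the 2 members past 1% FDR, Gadd45g turned from -0.07 to 0.02, and A430010J10Rik, whose 1 read in Gadd45a-KO was in replicate 2, was at 0 in the 4 libraries left. Gadd45g and Junb then had r = 0.879, with an adjusted p of 0.14 by exact permutation over 10 libraries. The calls of members are a description, since the members were chosen with this contrast known.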

How the data were processed

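RNA-seq counts from the hippocampi of 12 mice were used, 6 per label. According to the study's methods and the labels, the authors prepared strand-specific poly(A) libraries, aligned 51-base reads with TopHat 1.4.1 to NCBIM37/mm9 and counted reads by strand per Ensembl gene (release 66) with HTSeq 0.5.4p3. The deposited values are raw read counts per gene, without normalization or pooling. Reads without a gene (24.1% to 26.3% of each library, including ambiguous and non-unique alignments) were left out. Chi-square per degree of freedom between same-label libraries was 8.6 to 37.8 over 30 pairs.

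Symbols came from an annotation of the same build (Ensembl release 65), in which 37205 of 37991 identifiers matched. Sequences are from NCBIM37. Counts were filtered with edgeR 4.0.16 (filterByExpr, R 4.3.3), scaled by TMM factors, and tested by the quasi-likelihood F-test between labels with no covariate, at 1% FDR (Benjamini-Hochberg). CPM used TMM library sizes. The edgeR fit used the counts themselves, and log2 CPM for residuals and correlations used a prior count of 2. Two-sided exact permutation tests used Python 3.11.15 and scipy 1.17.1. Alternatives were DESeq2 1.42.0, RLE size factors, no filter, at least 10 reads in every library, 5% FDR, a prior count of 0.5, a replicate block, each library left out in turn and, added later, both libraries high in thalamic markers left out. On simulated counts in which 200 genes had a log2 change of 1, edgeR recovered 177 with 4 others among 16311 genes and DESeq2 182 with 15 others among 16399.

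The members, gene lists and tests were chosen with earlier results of these data known. Named are the members, from each list the most abundant gene and up to 4 past 1% FDR, the 3 genes most like each paralog, and called or nearest tested genes at the locus. A430010J10Rik, its second identifier, Gm8566, Mad2l1, Fam190a and Ier2 were named after their values were seen. Reads on single exons and on the neomycin cassette were not analysed here.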

Additional observations from a re-analysis of the deposited data

Results flagged for a closer look

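Among 16 groups of 6 libraries examined, 1 held a library set apart from the others of its label by Dixon's criterion, where chance gives about 1 in 20 groups, or 0.8, beside 1 group that meets it by construction. E230016M11Rik was at 3.87 CPM in Wildtype replicate 6 and at 3.27 to 3.47 CPM in the other 5, a gap of 0.669 of the range. A430010J10Rik was at 0.022 CPM in Gadd45a-KO replicate 2, which is 1 read, and at 0 in the other 5, where any single read meets the criterion.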

How the results depend on the processing

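Of the 460 values recomputed under an alternative, 421 stayed on their side of the threshold or, for a count, within 1.5 times the main count, and 0 called values changed sign. Among them are 288 lower genes without Wildtype replicate 2, against 430, and the uncalled Gadd45g, whose log2 fold change went from -0.07 to 0.02 without both libraries high in thalamic markers. The log2 fold changes of the members ranged from 3.02 to 3.16 for Gadd45a and from -4.61 to -4.24 for E230016M11Rik when each library was left out in turn, and Gadd45b (-0.19 to -0.09), Gadd45g (-0.13 to -0.01), Gng12 (0.04 to 0.1) and Serbp1 (-0.02 to 0.01) stayed uncalled. With at least 10 reads in every library, 1 member was called, since E230016M11Rik then left the table and could not be fitted. Calls of members are given as a description, because the choice of members was made with this contrast known. The counts of lower and higher genes were 430 and 4 in the main analysis, 660 and 18 with DESeq2, 726 and 20 at 5% FDR, 239 to 467 and 3 to 4 with each library left out, and 198 lower without both libraries high in thalamic markers. The lower count was 269, 239 and 261 without Wildtype replicates 3, 5 and 6, and 247, 276 and 248 without Gadd45a-KO replicates 1, 2 and 6. Genes called within 1 Mb were 1 with DESeq2, 1 with no filter and 1 without both thalamic-marker libraries, and within 5 Mb 2, 1 and 1, with 0 to 1 when single libraries were left out (Fam190a, 0.31, adjusted p = 0.00725 in edgeR, without Wildtype replicate 3). For Gadd45b and Gadd45g, r was 0.506 (exact permutation p = 0.153) without both thalamic-marker libraries and 0.515 to 0.711 with single libraries left out, with exact permutation p over 0.05 without Gadd45a-KO replicates 1 (0.0554), 2 (0.105) and 4 (0.0871). For Gadd45g and Junb r ranged from 0.884 to 0.946, with adjusted exact permutation p of 0.0586, 0.0686 and 0.0603 without Gadd45a-KO replicates 2, 4 and 6. For Gadd45g and Ier2, r was 0.884 (adjusted exact permutation p = 0.14) without both thalamic-marker libraries, and over all its alternatives 11 of 16 did not keep the call. Same-numbered libraries correlated in their deviations by -0.0761 to 0.262, over 0.1 in 5 of 6 pairs, with a mean of 0.14 against -0.0279 for other pairs, and 1 library correlated best with its own number. No source says what a number marks, and the libraries were not treated as pairs. With the replicate block, 509 genes were lower and 5 higher, 2 members were called, 1 pair of members passed, and Gadd45g with Ier2 had r = 0.7 (adjusted exact permutation p = 0.141). The cause of these changes was not tested. Few reads limit Il12rb2 and A430010J10Rik.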
